A study of Mus musculus with 2 samples.

Results

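The genes described here are 30 interferon-stimulated genes, chosen by symbol from common knowledge of the pathway and not by their values. All 30 were found among the 24346 gene symbols measured by RNA-seq in entire mouse omentum, a sheet of abdominal fat that carries lymphoid clusters called milky spots. There was 1 WT library and 1 Postn-DTR library, and both groups had received diphtheria toxin (DT) 5 days earlier. Postn-DTR mice are heterozygotes that carry a diphtheria toxin receptor in the first coding exon of 1 Postn copy. DT therefore kills cells that use the Postn promoter, which in the omentum the study attributes to Aldh1a2+ fibroblastic reticular cells (FRCs). The study also reported a partial loss of another FRC population of the omentum after DT. The promoter is also used by mesenchymal cells of other organs. Age and sex are not given in the labels, nor is it said whether a library held RNA of 1 mouse or of a pool. The study made the comparison to look for molecules through which lymphocytes are recruited to milky spots.

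Type I interferons bind the receptor IFNAR, whose kinases JAK1 and TYK2 activate the factor ISGF3. It contains STAT2 and IRF9 and binds a promoter sequence called the interferon-stimulated response element (ISRE). Its targets include proteins that detect viral RNA, proteins that block its translation or degrade it, and IRF7, which amplifies interferon production. Macrophages, dendritic cells, lymphocytes, endothelium and fibroblasts all express such genes at a resting level that depends on weak tonic interferon signalling.

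Values are FPKM, a fragment number corrected for transcript length and library depth, as deposited. With 1 library per genotype no spread between mice could be measured, so no difference between the genotypes was tested and no p-value is given. The change of a gene is log2(FPKM + 1) in Postn-DTR minus that in WT. It was computed for the 13127 genes whose mean FPKM reached 1. On this scale the change of a weakly expressed gene comes out too small. Folds quoted for single genes are ratios of FPKM. Their 95% intervals are exact conditional binomial (Clopper-Pearson) intervals on estimated reads, and they cover counting error only. Read numbers of the 30 genes were estimated at 95 to 4363 per library. In whole tissue, fewer cells of a type cannot be told apart from less RNA per cell.

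The label of the Postn-DTR library was checked on the targeted gene. Postn was at 58.3 FPKM in WT and 16.2 in Postn-DTR, 3.61-fold lower. Since 1 Postn copy holds the receptor cassette, Postn alone does not measure how many cells were lost. Aldh1a2, which names the targeted FRCs, was at 85.5 and 63.3, 1.35-fold lower. Fat and mesothelium were present in both libraries, with Adipoq at 955.2 and 635.9 and Upk3b at 211.6 and 181.9 in WT and Postn-DTR. The 24 pancreatic acinar genes compared were all lower in Postn-DTR, and their FPKM summed to 12326 and 20.4. The FPKM of all genes summed to 542190 and 671882. Leaving out the acinar genes and setting the FPKM totals equal moved the median change of all genes from 0.02 to -0.28. This scaling is called equal totals here, and directions are as deposited unless it is named.

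All 30 genes passed the expression minimum in the comparison, and none was past 2-fold in either direction. Over all genes compared, 3.12% were at least 2-fold lower and 3.88% at least 2-fold higher. At 1.5-fold, 2 members were lower (Mx1 and Ifi27) beside 8.84% of all genes, and 2 were higher (Oasl1 and Lgals3bp) beside 9.86% of all genes. These shares are near the background. As deposited, 19 of 30 members were lower in Postn-DTR and 11 higher, while 48.1% of all genes were lower. At equal totals 24 members and 77.2% of all genes were lower. The median change of the members was -0.13, against 0.02 for all genes. The quartiles of the members were -0.32 and 0.11, and those of all genes -0.24 and 0.28.

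**Figure D1:**
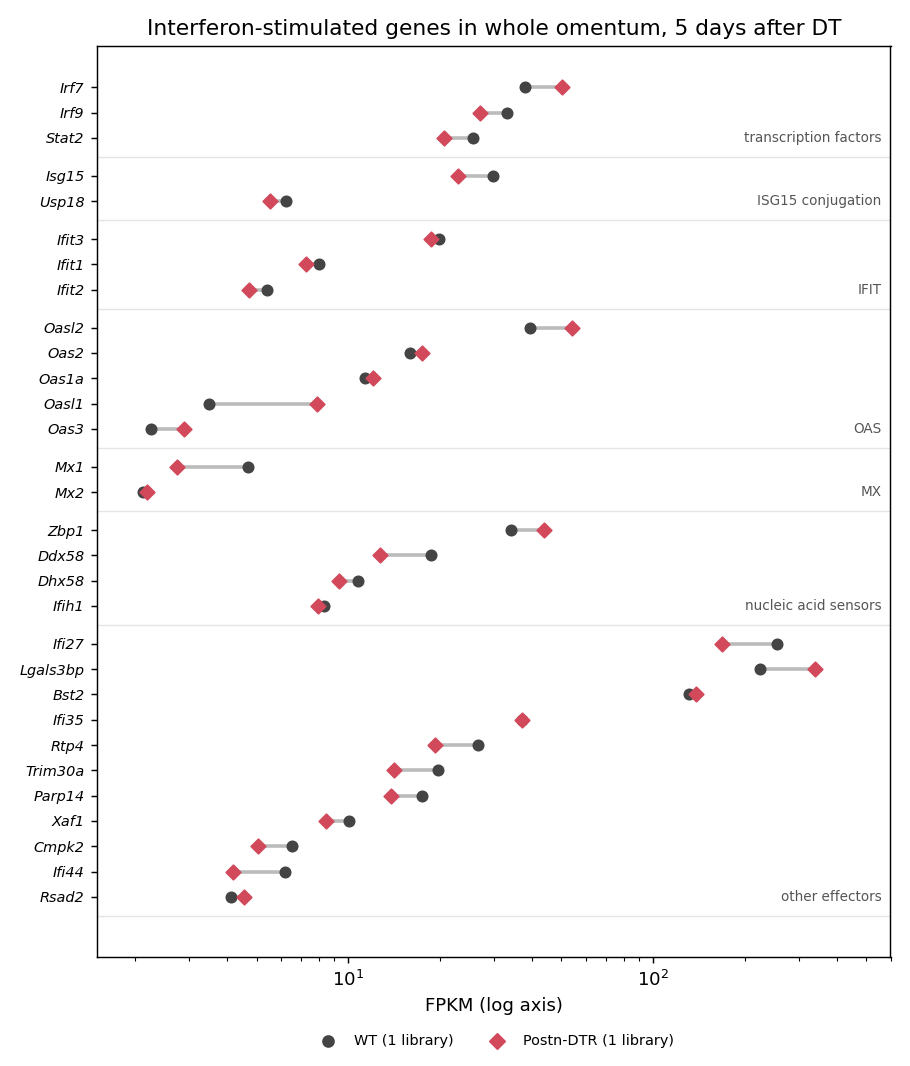
FPKM of each of the 30 interferon-stimulated genes on a log axis, in the WT library (circles) and the Postn-DTR library (diamonds), grouped by role. Levels ran from 2.13 to 253.8 FPKM in WT and from 2.19 to 338.9 in Postn-DTR, and the order of the genes was largely kept.

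The order of the genes by level was similar in both libraries. Across the 30 genes the Spearman correlation of FPKM was 0.979, a description in which all points share the same 2 libraries. Ifi27, Lgals3bp and Bst2 were the most abundant in each library and held 57.8% of the members' summed FPKM in WT and 59.7% in Postn-DTR. The summed FPKM was 1053 in WT and 1082 in Postn-DTR. Without these 3 genes it was 444.9 and 436.4. At equal totals the summed FPKM of the 30 was 0.810 times as high in Postn-DTR as in WT, so its near equality did not hold under that scaling. Mx2 was the lowest of the 30 in both libraries.

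**Figure D2:**
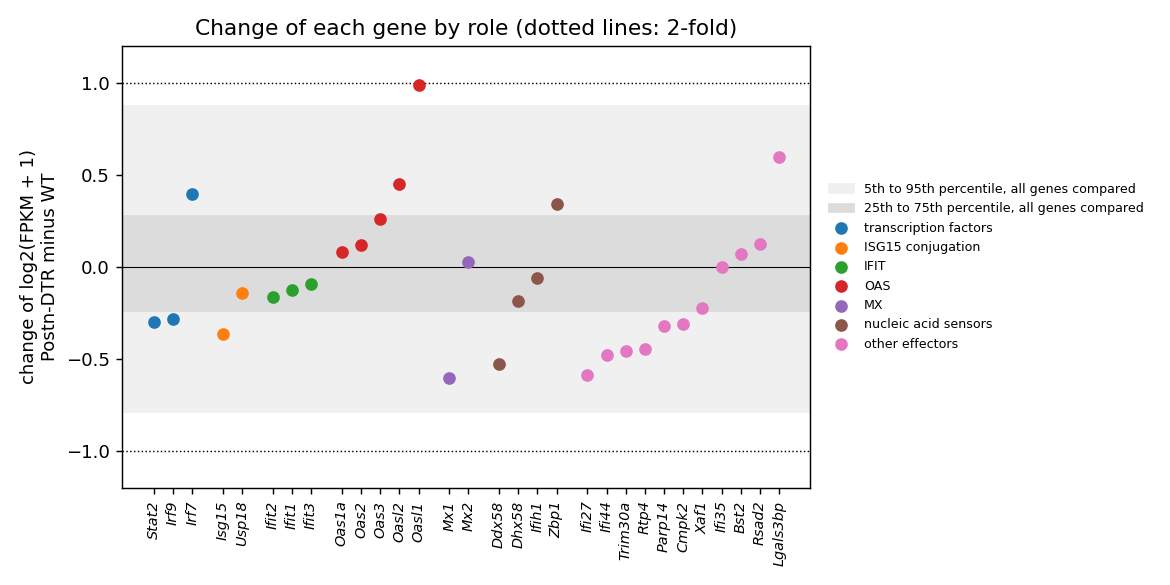
Difference in log2(FPKM + 1) between Postn-DTR and WT (above 0, higher in Postn-DTR) for each of the 30 genes, coloured by role, beside the 25th to 75th and the 5th to 95th percentile of all 13127 genes compared (shaded). As deposited, the 3 IFIT genes lie below 0 and the 5 OAS genes above it (Oas1a and Oas2 turn below 0 at equal totals), and Oasl1, at 0.99, is the only gene outside the 5th to 95th percentile band.

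The OAS family had 5 of 5 genes higher in Postn-DTR as deposited, of which Oas1a and Oas2 turned lower at equal totals, and the median of the 5 was 0.26. OAS1A, OAS2 and OAS3 make the short 2′-5′ oligoadenylates that switch on the ribonuclease RNase L when double-stranded RNA is present. Oasl1 (ENSMUSG00000041827, chromosome 5, 114923240 to 114937915, plus strand, GRCm38) encodes a relative known to restrain translation of Irf7 mRNA. Oasl1 was at 3.48 FPKM in WT and 7.88 in Postn-DTR, 2.26-fold higher (interval 1.87 to 2.75), from about 157 and 370 reads. It lay just under 2-fold on the log2(FPKM + 1) scale, with a change of 0.99, and past it on the FPKM ratio. Its neighbour Oasl2 was at 39.4 and 54.3, 1.38-fold higher (interval 1.24 to 1.53).

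The other OAS genes lie in a second cluster on chromosome 5 and differed less. Oas3 was at 2.25 FPKM in WT and 2.89 in Postn-DTR, 1.29-fold higher (interval 1.02 to 1.63). Oas2 was at 16.0 and 17.4, with a change of 0.12. Oas1a was at 11.3 and 12.1, with a change of 0.08 and an interval of the ratio, 0.935 to 1.21, that holds 1. The direction of the last 2 genes depended on scaling. At equal totals the changes of Oas2 and Oas1a became -0.21 and -0.23, and Oas1a was already at -0.012 when the 75th percentiles were matched. The median change of all genes was -0.28 at equal totals, so both genes stayed above it. Oas3, Oasl2 and Oasl1 stayed above 0 under all 4 scalings, with 0.014, 0.12 and 0.70 at equal totals.

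The IFIT family, whose proteins bind viral RNA that lacks the host's cap modification, had 3 of 3 genes lower, by small amounts. Ifit1 was at 8.03 FPKM in WT and 7.27 in Postn-DTR, a ratio of 0.905 (interval 0.790 to 1.03). Ifit2 was at 5.39 and 4.71, and Ifit3 at 19.9 and 18.6, with changes of -0.16 and -0.09. All 3 intervals of the ratio hold 1, so none of these differences was larger than counting error. The 3 genes are neighbours on chromosome 19.

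To compare the families at their control sequences, the 250 bases upstream of the start site were searched in RefSeq promoters (GRCm38.p6), of which 21 of the 30 members had an entry. No promoter was at hand for Usp18, Oas2, Mx1, Mx2, Dhx58, Zbp1, Parp14, Rtp4 and Ifi27. The motif was the core of the ISRE, GAAANNGAAA, on both strands, counting overlapping matches. It was found in 9 of 21 members (42.9%) and in 334 of the 9953 genes compared that had an entry (3.36%). Counted by promoter and not by gene, it was found in 2.98% of all 32851 promoters. The members with it were Stat2, Isg15, Ifit1, Ifit3, Oas1a, Oas3, Rsad2, Bst2 and Trim30a, and among them 5 were lower and 4 higher as deposited, the median being -0.09, while 8 were lower and 1 (Oas3) higher at equal totals. Among the 12 without it in this window 8 were lower and 4 higher, both as deposited, with a median of -0.11, and at equal totals. The medians at equal totals were -0.42 with the motif and -0.41 without it. Oasl1, Oasl2 and Irf7 had no match in this window. The windows below, read 5′ to 3′ on the strand of the gene, are shown because they hold the element in different arrangements in members of the IFIT, OAS and other families. Capitals mark the ISRE core, on either strand.
Ifit1, chr19:34640760-34640838, plus strand: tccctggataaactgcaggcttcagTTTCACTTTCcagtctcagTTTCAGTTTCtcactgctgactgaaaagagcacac
Ifit3, chr19:34583348-34583441, plus strand: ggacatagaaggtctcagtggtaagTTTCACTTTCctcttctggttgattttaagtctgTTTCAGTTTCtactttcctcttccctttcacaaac
Isg15, chr4:156200850-156200921, minus strand: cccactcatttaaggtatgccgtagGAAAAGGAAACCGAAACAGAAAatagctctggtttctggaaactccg
Oas1a, chr5:120907526-120907570, minus strand: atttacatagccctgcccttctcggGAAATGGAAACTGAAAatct
Oas3, chr5:120777700-120777759, minus strand: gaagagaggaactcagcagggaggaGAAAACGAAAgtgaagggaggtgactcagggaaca
Rsad2, chr12:26456538-26456597, minus strand: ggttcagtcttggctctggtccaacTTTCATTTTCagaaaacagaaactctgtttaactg

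Ifit3 and Oas1a have close copies, and their values are uncertain for that reason. Of the 50-base stretches in Ifit3 transcripts 51.2% also occur in Ifit3b, and 57.6% of those in Oas1a also occur in Oas1g. The promoter of Ifit3b holds the same 94 bases as printed for Ifit3, with 0 mismatches. Ifit3b was at 4.34 and 2.79 FPKM, a change of -0.49, and the sum of both copies was at 24.2 and 21.4, a change of -0.17. Oas1g was at 2.79 and 4.05, and the sum with Oas1a at 14.1 and 16.1, a change of 0.18. At equal totals the sum of Oas1a and Oas1g was 0.900 times as high in Postn-DTR as in WT, so its direction turned as that of Oas1a did, while Oas1g alone stayed higher, at 0.15.

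The transcription factors that switch these genes on did not share a direction. Irf7 (ENSMUSG00000025498, chromosome 7, 141262706 to 141266481, minus strand) was at 38.0 FPKM in WT and 50.2 in Postn-DTR, 1.32-fold higher (interval 1.23 to 1.42). Irf9 and Stat2, which encode parts of ISGF3, were both lower. Irf9 was at 33.1 and 27.1, 1.22-fold lower (interval 1.14 to 1.31), and Stat2 was at 25.6 and 20.6, 1.24-fold lower (interval 1.17 to 1.32). The FPKM of Irf7 was 1.15 times that of Irf9 in WT and 1.86 times in Postn-DTR, a comparison within each library that scaling does not touch, and Irf9 was 1.29 and 1.31 times Stat2. Irf7 was above 0 at equal totals as well, at 0.059.

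ISG15 is a ubiquitin-like protein that is attached to other proteins and removed by USP18, which also blocks the interferon receptor. Isg15 was at 29.7 FPKM in WT and 22.9 in Postn-DTR, 1.30-fold lower (interval 1.11 to 1.51). Usp18 was at 6.24 and 5.55, with a change of -0.14 and an interval that holds 1. The enzymes that attach ISG15 were lower too, in 3 of 3 genes found in the files. Uba7, the activating enzyme, was at 31.2 and 20.5, Ube2l6, the conjugating enzyme, at 45.8 and 40.2, and Herc6, the ligase, at 5.68 and 3.78. All 5 genes of the ISG15 system were thus lower, where 48.1% of all genes were lower as deposited and 77.2% at equal totals. None of them was past 1.5-fold on the log2(FPKM + 1) scale. On the FPKM ratio Uba7 was 1.52-fold and Herc6 1.504-fold lower.

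Among the nucleic acid sensors 3 of 4 were lower. Ddx58, which encodes the RNA sensor RIG-I (ENSMUSG00000040296, chromosome 4, 40203773 to 40239828, minus strand), was at 18.7 FPKM in WT and 12.7 in Postn-DTR, 1.47-fold lower (interval 1.35 to 1.61). Ifih1, which encodes the related sensor MDA5, was at 8.33 and 7.96, with an interval that holds 1. Dhx58, which encodes their regulator LGP2, was at 10.7 and 9.31, with a change of -0.18. The expression of Ifih1 was 0.445 times that of Ddx58 in WT and 0.626 times in Postn-DTR. Zbp1, a sensor of Z-form nucleic acid that can trigger cell death, stood on the other side, at 34.2 and 43.7, 1.28-fold higher (interval 1.17 to 1.39). At equal totals the change of Zbp1 was 0.0092.

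The MX genes encode dynamin-like GTPases that block viruses, and the Mx1 allele of most laboratory strains makes no functional protein. Mx1 was at 4.67 FPKM in WT and 2.74 in Postn-DTR, 1.71-fold lower (interval 1.33 to 2.196), with a change of -0.60, the most negative of the 30 as deposited, while that of Ifi27 was more negative at equal totals (-0.93 against -0.87), with matched 75th percentiles and with a pseudocount of 5. Mx2 was at 2.13 and 2.19, with a change of 0.03 that turned to -0.043 when the 75th percentiles were matched, and to -0.21 at equal totals. The pair shares few sequences, with 4.60% of the 50-base stretches of Mx1 also in Mx2.

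Of the 11 other effectors 8 were lower, with a median change of -0.31. Ifi27, whose product sits in mitochondria and the nuclear envelope, was at 253.8 FPKM in WT and 168.5 in Postn-DTR, 1.51-fold lower (interval 1.43 to 1.58). Lgals3bp, a secreted glycoprotein that binds galectins, was at 223.3 and 338.9, 1.52-fold higher (interval 1.45 to 1.59). These genes were the most abundant pair and exchanged their places, with Lgals3bp at 0.880 times Ifi27 in WT and 2.01 times in Postn-DTR. Bst2, which encodes tetherin, a membrane protein that holds budding virus on the cell, was the third most abundant and was at 131.2 and 137.8, a change of 0.07 that turned to -0.032 and -0.27 under these scalings.

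The remaining effectors were lower or close to equal. Ifi44 was at 6.20 FPKM in WT and 4.17 in Postn-DTR, 1.49-fold lower. Trim30a, a ubiquitin ligase, was at 19.7 and 14.1, and Rtp4, a chaperone of membrane receptors, at 26.5 and 19.2, with changes of -0.46 and -0.45. The values of Parp14, an ADP-ribosyltransferase, were 17.4 and 13.8, and those of Xaf1, which promotes apoptosis, 10.04 and 8.47. Ifi35, which binds other interferon-induced factors, was at 37.1 and 37.0. Rsad2 and Cmpk2 are adjacent on chromosome 12 in opposite orientation, and they encode viperin, which makes a chain-terminating nucleotide, and the kinase that supplies its substrate. Rsad2 was at 4.11 and 4.56 and Cmpk2 at 6.52 and 5.07, with changes of 0.12 and -0.31. At equal totals Rsad2 was at -0.16.

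**Figure D3:**
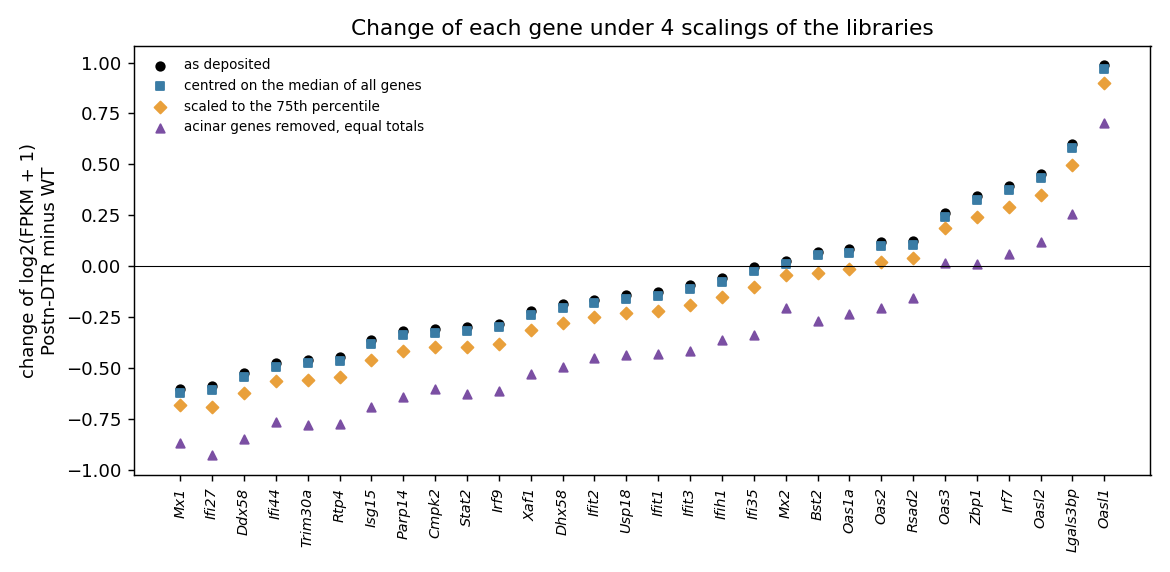
Difference in log2(FPKM + 1) between Postn-DTR and WT (above 0, higher in Postn-DTR) for each of the 30 genes under 4 scalings of the libraries, ordered by the change as deposited. The points of 25 genes stay on one side of 0, and those of Mx2, Bst2, Oas1a, Oas2 and Rsad2 cross it. The other scalings move all 30 genes downward, so the 19 genes lower as deposited could not cross 0.

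Each of the other 3 scalings moved all members downward, so the 19 members lower as deposited could not turn. The median change of all genes moved downward as well, and 19 members lay below it under each of the 4 scalings. Of the 11 higher as deposited, 6 stayed above 0 under all 4 scalings. Among these, Zbp1, Oas3 and Irf7 were only at 0.0092, 0.014 and 0.059 at equal totals. The other 5 were lower under at least 1 other scaling (Mx2, Bst2, Oas1a, Oas2 and Rsad2).

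The interferons themselves were hardly detected. Of 20 type I and type III interferon genes 17 were listed at 0 in both libraries. The other 3 were at or below 3 estimated reads, which is the floor used here, so no fold is given. Ifnb1 had about 1 read in Postn-DTR and 0 in WT, Ifnk 1 read in WT and 0 in Postn-DTR, and Ifnz 3 reads in each. A difference in interferon mRNA was not detectable at this depth.

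Genes of the interferon receptors and their kinases stood on both sides of 0. Ifnar1, the first receptor chain, was at 16.6 FPKM in WT and 16.7 in Postn-DTR, and Ifnar2, the second, at 90.3 and 114.9. Tyk2 was at 17.9 and 13.1, and Jak1 at 57.3 and 51.4. Ifngr1, Ifngr2 and Il10rb had changes of 0.13, 0.17 and 0.24, and all 3 are subunits of related cytokine receptors. At equal totals Ifnar1, Ifngr1, Ifngr2 and Il10rb turned below 0. Ifnlr1, the receptor for type III interferons, was under the expression minimum.

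Genes that lead to interferon production were split, with 7 of 15 lower, 8 higher and a median of 0.08 as deposited, where 48.1% of all genes were lower. At equal totals 10 were lower (Irf5, Tmem173 and Unc93b1 turned), beside 77.2% of all genes. Among the endosomal receptors, Tlr9, which detects DNA, was at 10.003 and 3.69 FPKM, a change of -1.23 and the only gene of this list past 2-fold. Tlr3 was at 6.62 and 3.77, while Tlr7, which detects single-stranded RNA, was at 9.86 and 17.1. Their chaperone Unc93b1 was at 161.3 and 174.2. Myd88, the adaptor of most Toll-like receptors, was at 43.5 and 67.7, and Tbk1, Ikbke and Trim25 were also higher, with changes of 0.48, 0.41 and 0.53. Mavs, the adaptor of the RNA sensors, and Traf3 had changes of -0.30 and -0.47. Changes of Irf3, Irf5, Tmem173, Mb21d1 and Ticam1 lay between -0.19 and 0.12.

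Of 13 negative regulators 4 were lower and 9 higher as deposited, with a median of 0.26. At equal totals 8 were lower (Pias1, Samhd1, Adar and Rnaseh2c turned). The shares of all genes that were lower were 48.1% as deposited and 77.2% at equal totals. Socs3, a feedback inhibitor induced mainly by IL-6 family cytokines, was at 17.8 and 143.4 FPKM, a change of 2.94. Socs1, the inhibitor induced by interferons, was at 8.17 and 6.66. Genes that limit the sensing of self nucleic acids, Trex1, Samhd1, Rnaseh2a, Rnaseh2b, Rnaseh2c and Adar, had changes from 0.02 to 0.42. Pias1 and Ptpn2 were at 0.26 and 0.63, and Ptpn6, Ptpn11 and Irf2 at -0.41, -0.06 and -0.04.

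A wider list of interferon-stimulated genes was compared to see how far the members stand for the class. Of 77 such genes in the files 74 passed the expression minimum, with 34 lower, 40 higher and a median change of 0.05 as deposited, and 54 lower at equal totals, where 77.2% of all genes were lower. Past 2-fold were 2 lower and 3 higher, which is near the 3.12% and 3.88% of all genes. The lower genes were Ms4a4c (8.12 FPKM in WT and 3.08 in Postn-DTR) and Samd9l (21.5 and 9.92), followed by Gm4951, Ifit1bl1 and Ifi203 at -0.84, -0.83 and -0.81. On the other side were Slfn4 (2.096 and 11.4), Ifitm6 (29.0 and 93.1) and Ly6c2 (50.9 and 150.3), genes known from neutrophils and monocytes, followed by Ifitm2 and Slfn2 at 0.92 and 0.82. The quartiles of this list were -0.40 and 0.38, farther apart than those of the 30 members. Its median turned to -0.034 when the 75th percentiles were matched and to -0.26 at equal totals.

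A list of interferon-gamma GTPases and CXCR3 ligands, which also holds Cxcr3, Ciita and Irf1, was mostly lower. Of 21 genes compared 17 were lower and 4 higher, with a median of -0.31, while 48.1% of all genes were lower. At least 2-fold lower were 4, and none was 2-fold higher, beside 3.12% and 3.88% of all genes. At equal totals 20 of the 21 were lower, beside 77.2% of all genes. Ciita, the master regulator of MHC class II genes, was at 15.6 FPKM in WT and 3.75 in Postn-DTR. Gbp10 was at 2.44 and 0.412, and Gbp8 at 8.94 and 4.45. The chemokine Cxcl9 was at 7.60 and 3.22, and its receptor Cxcr3, present on activated T cells, at 12.8 and 5.43. On the higher side were Tgtp1, Gbp5, Gbp2 and Igtp, with changes of 0.33, 0.15, 0.11 and 0.03, of which Tgtp1 alone stayed above 0 at equal totals, and Irgm1 was at -0.012. Whether this list and the 30 members differ was not tested, since genes of 1 library pair are not replicates.

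**Figure D4:**
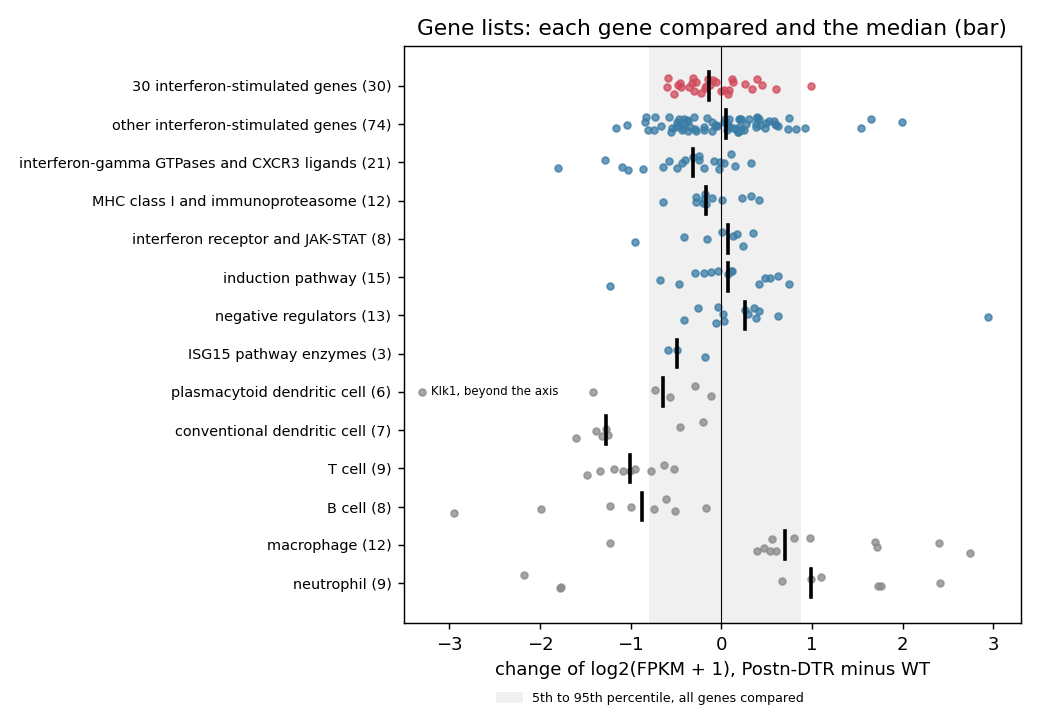
Difference in log2(FPKM + 1) between Postn-DTR and WT (above 0, higher in Postn-DTR) for each gene compared in 14 lists (points) with the median of each list (bar) and the 5th to 95th percentile of all genes (shaded), the number of genes in parentheses. The 30 members have a median of -0.13, between that of T cell markers at -1.005 and that of macrophage markers at 0.70.

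Markers of cells that express these genes moved at the same time, and their part in the values above was not tested. T cell markers were lower in 9 of 9 genes, with FPKM sums of 93.2 and 41.1 in WT and Postn-DTR, and B cell markers in 8 of 8, with sums of 521.4 and 349.5. Conventional dendritic cell markers were lower in 7 of 7, with sums of 60.6 and 27.6. Macrophage markers were higher in 11 of 12, with sums of 3016 and 4982, the exception being Ccr2 at 39.6 and 16.4. Neutrophil markers were higher in 6 of 9, with sums of 441.2 and 711.5, and the 3 lower ones, Camp, Ltf and Ngp, encode granule proteins made by precursors. Endothelial markers, a further source of these transcripts, were lower in 4 of 6, with sums of 244.2 and 231.8, and fibroblast markers in 5 of 7, with sums of 4279 and 3653. At equal totals all 6 endothelial and all 7 fibroblast markers were lower, and the counts of the T cell, B cell, dendritic cell, macrophage and neutrophil lists did not differ. That scaling put 77.2% of all genes lower, against 48.1% as deposited. No defining marker of these lists was at 0 in either library.

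Plasmacytoid dendritic cells, the main producers of type I interferon, were represented by 8 marker genes. Of these, 6 passed the minimum, and all 6 were lower as deposited and at equal totals, beside 48.1% and 77.2% of all genes. Tcf4 was at 13.6 and 12.5 FPKM in WT and Postn-DTR, with an interval of the ratio, 0.810 to 1.04, that holds 1. Pacsin1 was at 1.78 and 0.876, and Cox6a2 at 2.63 and 0.363, the latter from about 29 and 4 reads. Under the minimum, Runx2 was lower, at 1.16 and 0.484 FPKM in WT and Postn-DTR. Ccr9 was higher, at 0.631 and 0.926, with an interval of the ratio, 0.980 to 2.24, that holds 1. Siglech, the most specific, was at 2.39 FPKM in WT and 1.04 in Postn-DTR, 2.29-fold lower (interval 1.56 to 3.42) from about 88 and 40 reads. Klk1 was at 150.6 and 1.17, but it is also a product of exocrine glands, and the pancreatic acinar genes of the WT library were high as well. Ly6d, another of the 6, is named by the study among genes of omental T and B2 B cells. Bst2, a member that marks these cells in the mouse at rest, was at a similar level in both libraries.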

How the data were processed

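Whole-omentum RNA-seq of 1 WT and 1 Postn-DTR library, grouped by the genotype label, was analysed. Per the labels, the RNA came from a miRNeasy extraction and the library kit was stranded and selected mRNA. The authors deposited FPKM, 1 value per gene symbol. The submitters' processing notes name TopHat2 2.1.1, Bowtie2 2.2.8, SAMtools 0.1.18, Cuffdiff 2.2.1 and mm10. The annotation and any use of strand in counting are not given in the sources used here. Irf7, Usp18, Oasl1, Dhx58 and Ifi35 overlap exons on the opposite strand and Irf9, Parp14 and Rtp4 on the same strand, so their reads may be shared.

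Members and lists were chosen with earlier results of these data known. Named were all members, all genes compared of lists of up to 15 genes, and otherwise the 5 most negative and 5 most positive changes. Changes were computed with Python 3.11.15, pandas 2.3.3 and scipy 1.17.1, with a pseudocount of 1 and a mean FPKM of at least 1, and the code was tested on simulated data.

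Depth was estimated from genes with 1 transcript in GENCODE M21, which matched 23268 symbols. At about 23200000 fragments in WT and 24200000 in Postn-DTR, 75.9% and 75.8% of low values were within 0.1 of a whole read. Of 723 genes low in both libraries 174 had a ratio of 0.967, Postn-DTR to WT, the worth of 1 read. Reads of a gene used the median length of its coding transcripts and are approximate. One item is not reported here. Alternatives covered the pseudocount, the filter, the scaling and the fold.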

Additional observations from a re-analysis of the deposited data

How the results depend on the processing

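No replicate could be left out and no spread between mice is known, so the alternatives show only what the processing moves. The count of members at least 2-fold lower was 0 under all 7 alternatives of pseudocount, filter and scaling and at 3-fold, and 2 at 1.5-fold. The count at least 2-fold higher was 1 (Oasl1) with a pseudocount of 0.1 and on the FPKM ratio without a pseudocount, an alternative chosen after seeing the data, and 2 at 1.5-fold. At equal totals without acinar genes the median change of the members was -0.43 and that of the wider interferon-stimulated list -0.26, by construction of that scaling, which lowered all genes. The latter was also below 0, at -0.034, when the 75th percentiles were matched. The median of the interferon-gamma list stayed below 0 under every alternative tried, although the scalings could only lower it. Of the changes of single members under alternatives 144 stayed within the counting interval of the gene and 36 did not. The 144 include the FPKM ratios without a pseudocount, on which the intervals rest, so these could not leave them. Most of the 36 were at equal totals, where most members left their interval. Genes at a few FPKM, such as Mx2 with about 109 and 117 reads, are limited by depth. No paired analysis was possible because each genotype has 1 library.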

Other observations

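MHC class I and immunoproteasome genes, many of which interferons raise, were split by step as deposited. The heavy chains H2-K1 and H2-D1 and the light chain B2m were higher in Postn-DTR as deposited, with changes of 0.33, 0.42 and 0.23, and of these H2-D1 alone stayed above 0 at equal totals. The peptide transporter genes Tap1 and Tap2 were at -0.29 and -0.28, and the 3 immunoproteasome subunits Psmb8, Psmb9 and Psmb10 at -0.20, -0.65 and -0.18. Tapbp, Psme2 and the regulator Nlrc5 were at -0.10, -0.19 and -0.17, and Psme1 was equal at 192.6 and 193.2 FPKM. Of the 12 genes 8 were lower as deposited, with a median of -0.17, beside 48.1% of all genes. At equal totals 11 were lower, beside 77.2% of all genes. None was past 2-fold as deposited.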
